A study of Mus musculus with 9 samples.

Results

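The collagen genes of the mouse were examined in pluripotent stem cells kept in 3 culture states. Members were all protein-coding rows of the count table whose symbol reads Col, a number, the letter a and a number, which gave 44 of the 38293 genes counted. The rule itself uses names and no measured value, though earlier results of these data were known when it was set. They were sorted by the structure that their protein builds into 11 fibrillar genes, 9 FACIT genes (fibril-associated collagens with interrupted helices), 6 basement membrane network genes, 6 beaded filament genes, 4 transmembrane genes, 3 short-chain network genes, 2 multiplexin genes, 1 anchoring fibril gene and 2 others.

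Collagens are secreted or membrane-bound proteins whose chains wind around each other into a rope-like helix. Fibrillar types carry the load in connective tissue, network-forming type IV builds the sheet of basement membranes that lies under epithelia and around the early embryo, and the remaining classes decorate, anchor or link these structures. Early embryonic cells are known for basement membrane proteins, while the fibrillar types are best known from mesenchyme, bone, cartilage and skin.

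RNA-seq libraries came from E14, a mouse embryonic stem cell line of the 129/Ola strain, with 3 replicate libraries in each of 3 groups. The mESC-2i group was kept in N2B27 medium with 1 µM of the MEK inhibitor PD0325901, 3 µM of the GSK3 inhibitor CHIR99021 and 10 ng/mL leukaemia inhibitory factor (LIF). The mESC-ser group was kept on gelatin in medium with 15% foetal bovine serum and 10 ng/mL LIF, and the EpiLC group (epiblast-like cells) was derived from the naive cells on fibronectin in N2B27 with 20 ng/mL activin A, 12 ng/mL bFGF and a serum replacement. All 3 groups are 1 line, so the spread between replicates does not cover differences between lines, and medium and coating changed together. Totals ran from 7187576 to 16829549 counts per library. The labels were checked on known markers: Fgf5, a marker of the epiblast, averaged 0.0816 ± 0.0834 CPM (SD, n = 3) in mESC-2i against 3.90 ± 0.700 in mESC-ser, while EpiLC had 122 ± 6.01, and Esrrb, a naive marker, averaged 675 ± 3.25, 454 ± 49.5 and 14.5 ± 1.86 CPM. Replicate 3 of mESC-2i stood further from its group than the other 2 libraries did, with chi-square values per degree of freedom of 12.6 and 28.3 against replicates 1 and 2, where those 2 gave 3.85. Replicate 3 of mESC-ser stood apart as well, at 10.9 and 11 against replicates 1 and 2, which gave 1.61. Where leaving out either library changes a call or moves the fold of a gene described here by more than 1.5 times, the value without it is given.

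Levels are given as CPM (counts normalised to library size, with TMM factors over the 9 libraries), and as RPKM (the same per kilobase of exonic length) wherever genes are set against each other. Summed over the 44 genes, the level was 430, 425 and 470 CPM in replicates 1, 2 and 3 of mESC-2i. It was 971, 937 and 1148 CPM in mESC-ser and 559, 574 and 543 CPM in EpiLC. Every mESC-ser library thus lay above every library of the other 2 groups. As a share of all counts, collagen genes took 0.0491% ± 0.00297 (SD, n = 3) in mESC-2i against 0.105% ± 0.0118 in mESC-ser, while EpiLC had 0.0485% ± 0.00131. A single gene, Col18a1, made up 45.9% ± 1.90 of the summed RPKM in mESC-2i against 64.1% ± 0.643 in mESC-ser, while EpiLC had 85.2% ± 0.173. Without Col18a1, the other 43 genes summed to 237, 226 and 265 CPM in mESC-2i, then 352, 341 and 428 CPM in mESC-ser and 82.3, 83.1 and 81.3 CPM in EpiLC, so that EpiLC then lay lowest in every library. In bulk RNA, fewer cells of a type and less RNA per cell cannot be told apart.

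**Figure D1:**
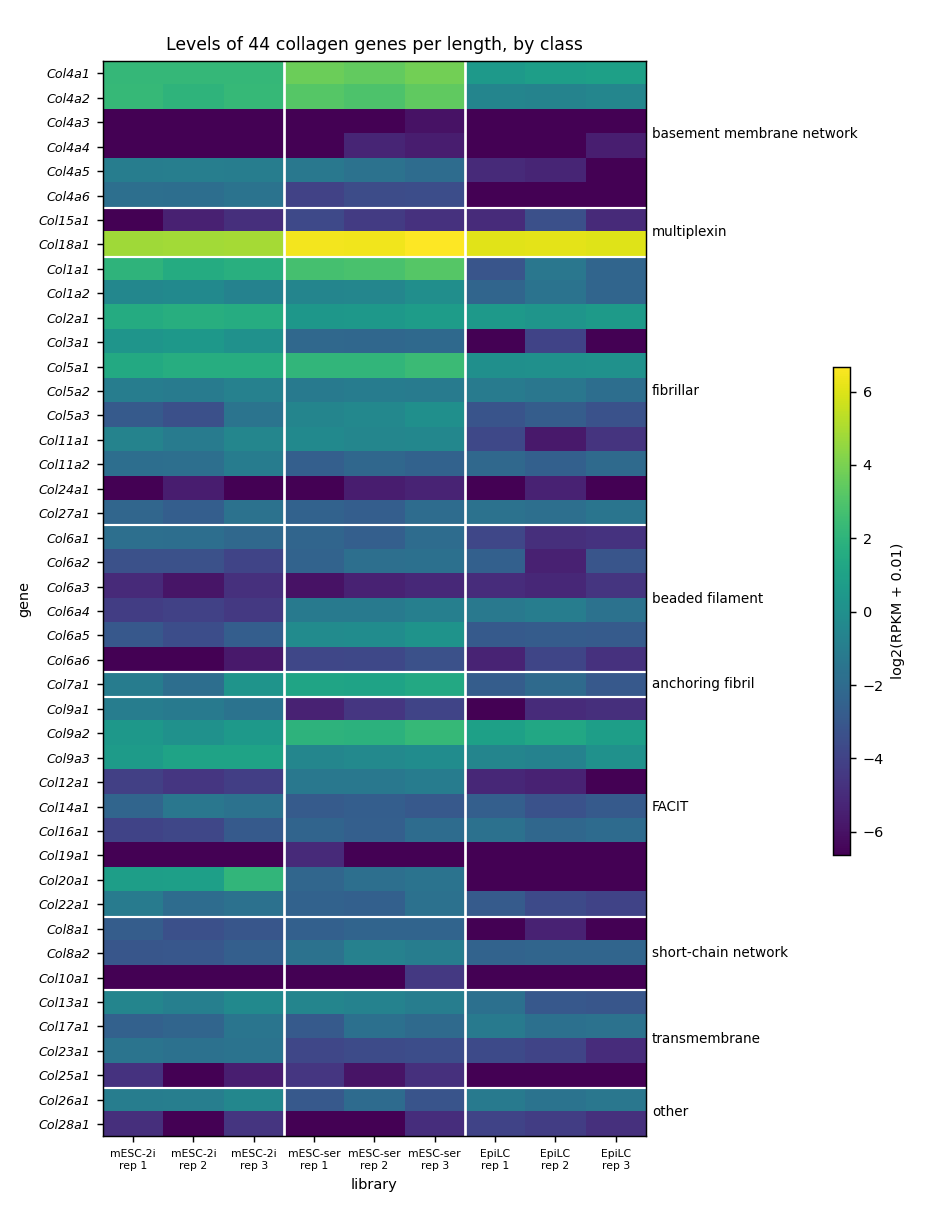
Levels of the 44 collagen genes (rows, grouped by class) in the 9 libraries (columns), coloured by log2(RPKM + 0.01). Col18a1 is the brightest row in all 9 libraries, and 16 genes lie at the count floor in EpiLC, against 9 in mESC-2i and 6 in mESC-ser.

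Many collagen genes were near the limit of counting. A gene was taken as at the floor of a group when each of its 3 libraries held 3 counts or fewer. This held for 9 of the 44 genes in mESC-2i against 6 in mESC-ser, while EpiLC had 16, and for 6 genes in all 3 groups, namely Col4a3, Col4a4, Col10a1, Col19a1, Col24a1 and Col28a1. Together with Col6a3, Col15a1 and Col25a1 these made 9 genes with fewer than 10 counts in each of the 9 libraries. None of the 9 passed the filter on low counts. Fitted without that filter, Col25a1, with 6, 1 and 6 counts in mESC-ser and none in EpiLC, was called lower in EpiLC (adjusted p = 0.00708), and the other 8 were called in no comparison. The same fit also called 6 further differences that the filter had left untested, with Col6a6 higher in mESC-ser and in EpiLC than in mESC-2i, Col8a1 and Col12a1 lower in EpiLC than in mESC-2i and Col4a6 and Col6a1 lower in EpiLC than in mESC-ser. With 10 counts as the limit in place of 3, the genes at the floor numbered 14, 11 and 26. At the other end, 34 genes reached a mean of 1 CPM in at least 1 group, and these are described one by one below.

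The 3 comparisons asked how collagen transcripts differ between serum and 2i culture and what became of them on the way to EpiLC. A gene was called at an adjusted p under 0.05 (edgeR quasi-likelihood test, Benjamini-Hochberg over all tested genes) and an absolute log2 fold change over 0.5. In mESC-ser against mESC-2i, 34 members were tested, of which 14 were called higher and 11 lower. Among all 15728 genes tested, 25.9% were called higher and 30.3% lower, against 41.2% and 32.4% of the tested members. The median log2 fold change was -0.06 over the members and -0.04 over all genes.

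In EpiLC against mESC-2i, 29 members were tested, with 4 called higher and 21 lower. The background was 32% higher and 37.8% lower of 15378 genes, against 13.8% and 72.4% of the tested members. The median log2 fold change was -1.55 over the members and -0.11 over all genes. In EpiLC against mESC-ser, 30 members were tested, with 3 called higher and 19 lower. Here 35.5% of 15345 genes were called higher and 37.8% lower, against 10% and 63.3% of the tested members, and the medians were -1.50 and -0.07. These comparisons share libraries pairwise, so their values are set side by side and not counted as separate evidence. Members that passed the filter on low counts are not all members, since some passed only through the group where they were high.

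Collagen genes are long, and correcting for transcript length and GC content moved some of these counts. The tested members had a median exonic length of 7021 to 7648.5 bases in the 3 comparisons, against 4390 to 4430 bases for tested protein-coding genes. With offsets for length and GC content, 13 members were called higher and 13 lower in mESC-ser against mESC-2i (26.9% and 26.4% of all genes), with a member median of -0.17. In EpiLC against mESC-2i the counts were 7 and 18 (37.5% and 29.7% of all genes), with a median of -1.12, and in EpiLC against mESC-ser 7 and 17 (37.2% and 29.2%), with a median of -1.26. These offsets moved the median of all genes from -0.11 to 0.18 and from -0.07 to 0.15 in the 2 comparisons with EpiLC. Scaling by total counts moved the same medians to -0.45 and -0.41. Exons of Col3a1, Col4a1, Col4a2, Col5a1, Col6a4, Col7a1, Col9a3, Col20a1 and Col22a1 overlap those of other genes, and reads there cannot be told apart by strand. The same holds for Col4a3, Col6a6, Col10a1 and Col15a1, which averaged under 1 CPM in every group.

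**Figure D2:**
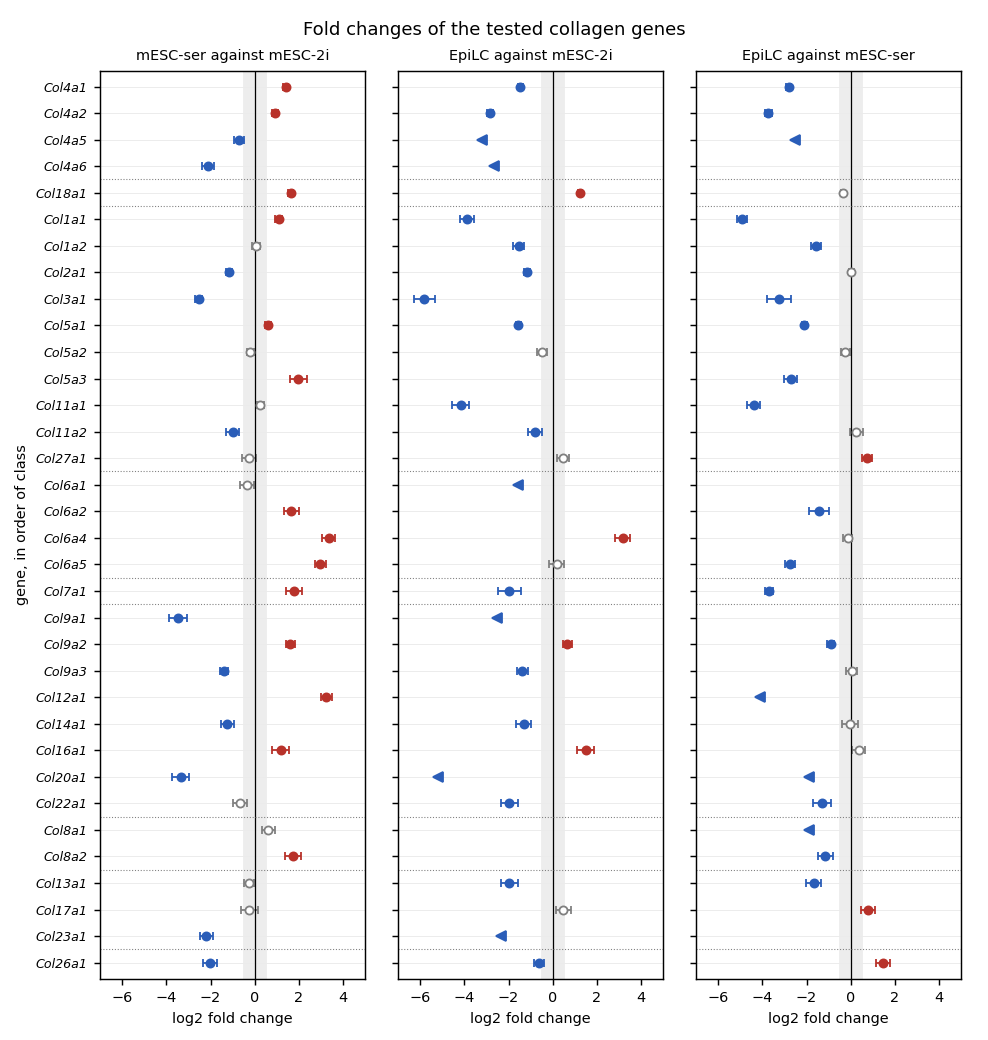
Log2 fold change (x axis) of each tested collagen gene (y axis, in order of class) in the 3 comparisons. Points with bars are estimates ± SE, triangles are bounds against a group at the count floor, red is called higher, blue is called lower and open grey is not called, and the grey band marks an absolute log2 fold change up to 0.5. In EpiLC against mESC-2i, 21 genes are blue and 4 are red.

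Type IV collagen, the network of basement membranes, was led by Col4a1 and Col4a2, the 2 chains found in most basement membranes. Col4a1 (ENSMUSG00000031502) and Col4a2 (ENSMUSG00000031503) lie head to head on chromosome 8 of mm10, Col4a1 on the minus strand at 11198423 to 11312826 and Col4a2 on the plus strand at 11312805 to 11449287. Their annotated starts are 21 bases apart and the genes overlap by 22 bases. The library kit does not mark strand, so reads within that overlap cannot be assigned. Because both genes moved in the same direction in all 3 comparisons and start next to each other, their promoter windows are shown. Each spans 250 bases before to 50 bases after a RefSeq start (GRCm38.p6, the same assembly as mm10), written 5′ to 3′ on the strand of its gene. Col4a1 is at chr8:11312777-11313076 (minus strand) and Col4a2 at chr8:11312555-11312854 (plus strand), and 78 bases belong to both windows. Capitals mark matches, on either strand, to the GC box, whose letters are GGGCGG on one strand and CCGCCC on the other, and the CCAAT box, which reads ATTGG on the other strand. The letters TATAAA were also searched.
Col4a1: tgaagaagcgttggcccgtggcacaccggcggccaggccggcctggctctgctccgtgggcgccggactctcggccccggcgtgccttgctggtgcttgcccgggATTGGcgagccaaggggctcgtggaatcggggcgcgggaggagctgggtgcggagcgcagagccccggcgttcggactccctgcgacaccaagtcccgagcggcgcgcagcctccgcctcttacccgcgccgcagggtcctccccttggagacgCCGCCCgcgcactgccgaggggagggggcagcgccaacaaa
Col4a2: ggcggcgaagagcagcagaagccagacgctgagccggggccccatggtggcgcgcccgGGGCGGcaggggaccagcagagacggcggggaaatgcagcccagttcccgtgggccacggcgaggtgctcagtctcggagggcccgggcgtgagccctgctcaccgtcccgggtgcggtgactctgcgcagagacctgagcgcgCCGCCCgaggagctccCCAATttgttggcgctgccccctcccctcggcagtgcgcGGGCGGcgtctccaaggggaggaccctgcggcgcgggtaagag

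The Col4a1 window held 1 GC box and 1 CCAAT box and the Col4a2 window 3 GC boxes and 1 CCAAT box, and neither held TATAAA. The GC box of the Col4a1 window lies in the bases shared by both windows and is also 1 of the 3 counted for Col4a2. The GC content was 74.0% and 73.7%. RefSeq windows were found for 35 of the 44 members, 38 windows in all. A GC box occurred in 60.5% of these and in 35.7% of all 32851 windows. The CCAAT box occurred in 34.2% against 37.4%, and TATAAA in 13.2% against 13.6%. A match is a run of letters and not a site shown to be bound.

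Col4a1 stood at 35.5, 34.6 and 34.4 CPM in mESC-2i, at 94.4, 84.0 and 109 CPM in mESC-ser and at 11.1, 13.1 and 14.1 CPM in EpiLC. The 3 groups did not overlap, with mESC-ser highest and EpiLC lowest. It was 2.64-fold higher in mESC-ser than in mESC-2i (log2 1.40, SE 0.12, adjusted p = 3.2e-06). In EpiLC it was 2.75-fold lower than in mESC-2i (log2 -1.46, SE 0.12, adjusted p = 1.44e-06) and 7.04-fold lower than in mESC-ser (log2 -2.82, SE 0.12, adjusted p = 1.6e-12). Col4a2 read 31.9, 27 and 32.0 CPM in mESC-2i, then 58.4, 51.0 and 70.2 CPM in mESC-ser and 4.29, 4.01 and 4.52 CPM in EpiLC. Its groups kept the same order without overlap. It was 1.90-fold higher in mESC-ser than in mESC-2i (log2 0.93, SE 0.14, adjusted p = 0.000201), and in EpiLC it was 7.17-fold lower than in mESC-2i (log2 -2.84, SE 0.15, adjusted p = 5.18e-08) and 13.2-fold lower than in mESC-ser (log2 -3.73, SE 0.15, adjusted p = 9.27e-13).

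Col4a5 and Col4a6 encode the chains of a second type IV network and lie head to head on chromosome X, with 1308 bases between them. Unlike the first pair, both were highest in mESC-2i. Col4a5 measured 3.32, 3.42 and 3.35 CPM in mESC-2i, then 2.66, 2.12 and 1.66 CPM in mESC-ser, and its EpiLC libraries held 1, 1 and 0 counts. Serum cells were 1.64-fold lower than mESC-2i (log2 -0.71, SE 0.23, adjusted p = 0.0183), a call lost with DESeq2 (adjusted p = 0.0656) and without replicate 2 (0.0573) or replicate 3 of mESC-ser (0.0748). EpiLC was at the floor and was at least 9.13-fold lower than mESC-2i (adjusted p = 2.39e-06) and at least 5.83-fold lower than mESC-ser (adjusted p = 1.86e-06). Col4a6 stood at 2.21, 2.17 and 2.57 CPM in mESC-2i, then at 0.420, 0.594 and 0.632 CPM in mESC-ser, with no count in any EpiLC library. It fell 4.33-fold from mESC-2i to mESC-ser (log2 -2.12, SE 0.28, adjusted p = 8.7e-05) and lay at least 6.29-fold lower in EpiLC than in mESC-2i (adjusted p = 1.64e-05). Against mESC-ser it was not tested. Col4a3 and Col4a4, chains of the kidney filter, held at most 2 counts in any library. Of the 4 type IV genes tested in mESC-ser against mESC-2i, 2 were called higher and 2 lower, beside 25.9% and 30.3% of all genes. Of those tested against EpiLC, all 4 were called lower than in mESC-2i and all 3 lower than in mESC-ser, beside 37.8% of all genes in each. The median log2 fold changes were -2.75 and -2.82 when genes at the floor are put at their bound. Where tested, Col4a5 and Col4a6 were at the floor in EpiLC and passed the filter through the other group, so only a lower call was open to them. Col4a1 and Col4a2 alone were above the floor in both groups.

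Among the multiplexins, which sit in basement membranes around the network, Col18a1 (ENSMUSG00000001435, chromosome 10, 77052178 to 77166548, minus strand) was the collagen gene with the highest level per length in all 3 groups. Its protein releases endostatin, a fragment known as an inhibitor of vessel growth. RefSeq places 2 starts at this gene, and the counts do not tell them apart. Their windows are shown because this gene carries most of the collagen level in EpiLC: the outer at chr10:77166481-77166780 and the inner at chr10:77113656-77113955, both on the minus strand of GRCm38.p6, with the same motifs in capitals.
Col18a1 outer: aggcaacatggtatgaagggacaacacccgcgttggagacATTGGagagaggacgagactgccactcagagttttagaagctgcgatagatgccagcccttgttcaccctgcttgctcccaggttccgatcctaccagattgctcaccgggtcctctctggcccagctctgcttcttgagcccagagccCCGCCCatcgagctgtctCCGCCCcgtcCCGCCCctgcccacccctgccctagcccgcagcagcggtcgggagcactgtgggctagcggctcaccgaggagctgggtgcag
Col18a1 inner: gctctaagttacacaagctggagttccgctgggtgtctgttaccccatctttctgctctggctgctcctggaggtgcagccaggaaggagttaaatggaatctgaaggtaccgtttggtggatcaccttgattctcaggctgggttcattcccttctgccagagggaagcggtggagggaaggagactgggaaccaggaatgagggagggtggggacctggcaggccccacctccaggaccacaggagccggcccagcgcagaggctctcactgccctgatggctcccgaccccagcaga

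The outer window held 3 GC boxes and 1 CCAAT box and the inner none, at a GC content of 63.3% and 59.7%. Col18a1 measured 193, 199 and 205 CPM in mESC-2i, then 619, 596 and 719 CPM in mESC-ser and 476, 491 and 462 CPM in EpiLC. All serum libraries lay above all EpiLC libraries, and these above all mESC-2i libraries. It was 3.11-fold higher in mESC-ser (log2 1.64, SE 0.11, adjusted p = 6.14e-07) and 2.36-fold higher in EpiLC (log2 1.24, SE 0.09, adjusted p = 4.21e-07) than in mESC-2i. Between EpiLC and mESC-ser it passed the adjusted p but not the fold threshold (log2 -0.35, SE 0.08, adjusted p = 0.00111). That difference was called with total-count scaling (log2 -0.69) and did not pass the test with length and GC offsets (adjusted p = 0.964). Per length, Col18a1 averaged 28.4 ± 0.816 RPKM (SD, n = 3) in mESC-2i against 91.8 ± 9.34 in mESC-ser, while EpiLC had 67.9 ± 2.12. The next collagen genes were Col4a1 in mESC-2i (4.67 ± 0.0785 RPKM) and in mESC-ser (12.8 ± 1.65 RPKM), and Col9a2 in EpiLC (2.07 ± 0.395 RPKM). The second multiplexin gene, Col15a1, held 0 to 6 counts in the 9 libraries and was not tested.

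**Figure D3:**
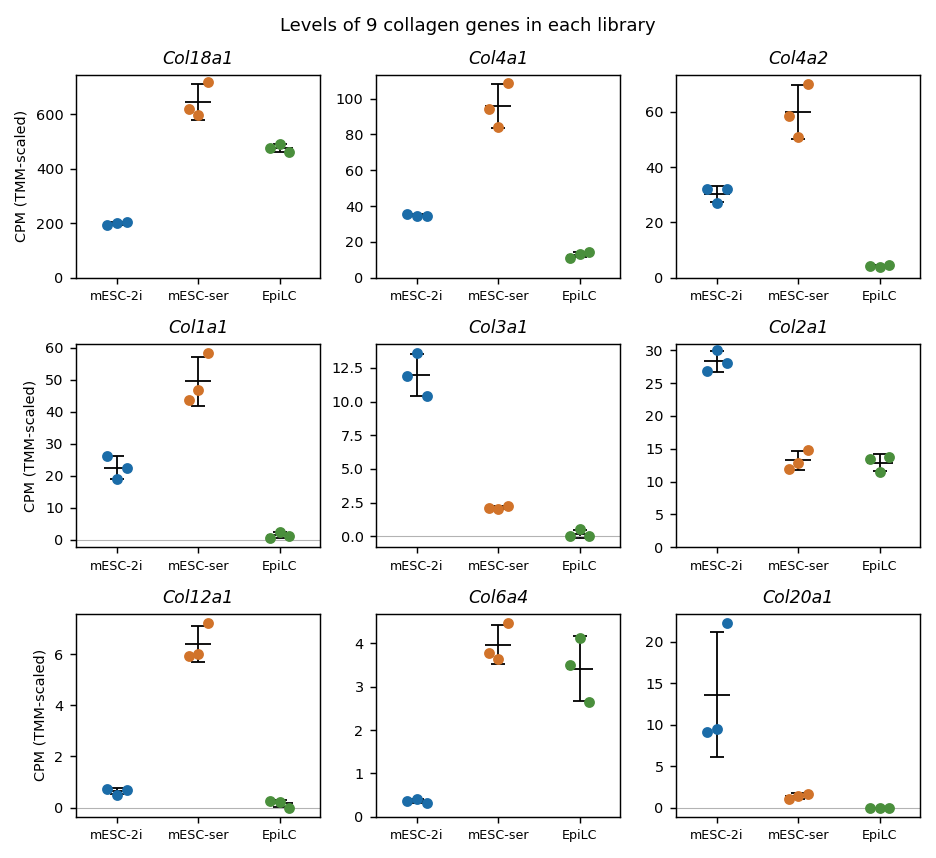
TMM-scaled CPM (y axis, a scale for each gene) of 9 collagen genes in the 3 groups. Dots are the 3 libraries, the horizontal mark is their mean and bars are ± SD. Col18a1 is lowest in mESC-2i, Col4a1, Col4a2 and Col1a1 are lowest in EpiLC, and 1 mESC-2i library of Col20a1 at 22.3 CPM lies well above the other 2.

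Fibrillar collagen genes did not follow a common pattern between serum and 2i, where 3 of 10 tested were called higher and 3 lower. These shares of 30% each lie near those of all genes, 25.9% and 30.3%. In EpiLC against mESC-2i, 7 of 9 were called lower and none higher, beside 37.8% and 32% of all genes. With length and GC offsets 6 were lower and 1 higher, beside 29.7% and 37.5%. Against mESC-ser, 6 of 10 were lower in EpiLC and 1 higher, beside 37.8% and 35.5% of all genes. With the offsets these were 6 and 3, beside 29.2% and 37.2%. Col1a1, the main chain of type I collagen of bone and skin (ENSMUSG00000001506, chromosome 11, 94936224 to 94953042, plus strand), stood at 26.3, 18.9 and 22.4 CPM in mESC-2i, at 43.7, 46.8 and 58.3 CPM in mESC-ser and at 0.671, 2.5 and 1.26 CPM in EpiLC. No groups overlapped. It was 2.12-fold higher in mESC-ser than in mESC-2i (log2 1.09, SE 0.16, adjusted p = 0.000149). In EpiLC it fell 14.7-fold from mESC-2i (log2 -3.88, SE 0.30, adjusted p = 8.76e-07) and 30.2-fold from mESC-ser (log2 -4.92, SE 0.23, adjusted p = 3.89e-12). Without replicate 2 of EpiLC the 2 values were -4.52 and -5.57 on the log2 scale.

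Col1a2, the partner chain of type I collagen, read 8.96, 9.67 and 7.33 CPM in mESC-2i, then 8.05, 8.48 and 11.7 CPM in mESC-ser and 2.42, 4.01 and 2.39 CPM in EpiLC. The first 2 groups overlapped and did not differ by the test (log2 0.07, SE 0.18, adjusted p = 0.736). EpiLC lay below both, 2.92-fold under mESC-2i (log2 -1.55, SE 0.23, adjusted p = 0.000122) and 2.98-fold under mESC-ser (log2 -1.57, SE 0.22, adjusted p = 5.82e-06). With length and GC offsets these were -0.88 and -0.62 on the log2 scale, both still called.

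Col3a1, the chain of type III collagen that accompanies type I in soft tissue (ENSMUSG00000026043, chromosome 1, 45311538 to 45349706, plus strand), showed the opposite direction to Col1a1 between the 2 stem cell groups. It measured 11.9, 13.6 and 10.4 CPM in mESC-2i, then 2.10, 2.04 and 2.24 CPM in mESC-ser, and EpiLC libraries held 0, 5 and 0 counts. No groups overlapped, and mESC-2i was highest. It fell 5.82-fold in mESC-ser (log2 -2.54, SE 0.17, adjusted p = 8.23e-07). EpiLC was 56.3-fold lower than mESC-2i (log2 -5.82, SE 0.48, adjusted p = 1.21e-06) and 9.48-fold lower than mESC-ser (log2 -3.25, SE 0.55, adjusted p = 3.86e-05), sizes that rest on the 5 counts of 1 library and that were -5.11 and -2.42 on the log2 scale with length and GC offsets. Without that library EpiLC had no count, and the fitted fold is then not a measure.

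Col2a1, the cartilage collagen, read 26.9, 30.0 and 28.1 CPM in mESC-2i, then 12.0, 12.8 and 14.9 CPM in mESC-ser and 13.4, 11.4 and 13.8 CPM in EpiLC. Cells in 2i lay above both other groups, which overlapped. It was 2.23-fold lower in mESC-ser (log2 -1.15, SE 0.13, adjusted p = 2.02e-05) and 2.23-fold lower in EpiLC (log2 -1.16, SE 0.12, adjusted p = 7.51e-06). EpiLC and mESC-ser did not pass the test (log2 0.04, SE 0.13, adjusted p = 0.798), but EpiLC was called higher with length and GC offsets (log2 0.63, adjusted p = 0.000107).

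Type V collagen seeds fibrils of type I. Col5a1 stood at 22.8, 26.4 and 26.6 CPM in mESC-2i, at 36.4, 36.7 and 46.2 CPM in mESC-ser and at 8.46, 8.79 and 9.05 CPM in EpiLC, without overlap. The rise in mESC-ser was 1.51-fold (log2 0.59, SE 0.13, adjusted p = 0.00201), and it dropped below the fold threshold with length and GC offsets (log2 0.39) or without replicate 3 of mESC-ser (log2 0.48). EpiLC was 2.92-fold lower than mESC-2i (log2 -1.55, SE 0.13, adjusted p = 1.19e-06) and 4.28-fold lower than mESC-ser (log2 -2.10, SE 0.13, adjusted p = 1.3e-10).

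Col5a2, the partner chain of Col5a1, measured 4.79, 4.34 and 5.38 CPM in mESC-2i, then 4.27, 4.58 and 4.42 CPM in mESC-ser and 4.29, 3.69 and 2.64 CPM in EpiLC. Serum libraries overlapped both other groups, and EpiLC lay below mESC-2i. No comparison was called (log2 -0.19, -0.47 and -0.24, adjusted p = 0.354, 0.0742 and 0.283). Its direction in EpiLC depended on the scaling. Total-count scaling called it lower than in mESC-2i (log2 -0.81, adjusted p = 0.00653) and in mESC-ser (log2 -0.58, adjusted p = 0.0137), and a minimum of 10 counts in every library called it lower than in mESC-2i (adjusted p = 0.043). The 2 comparisons with EpiLC turned in sign with length and GC offsets, to 0.29 against mESC-2i and to 0.71 against mESC-ser, the latter then called higher (adjusted p = 0.00477). Col5a3 measured 0.860, 0.584 and 2.34 CPM in mESC-2i, then 4.55, 4.92 and 6.6 CPM in mESC-ser and 0.671, 0.976 and 0.628 CPM in EpiLC. Serum libraries lay above all others, by 3.92-fold over mESC-2i (log2 1.97, SE 0.38, adjusted p = 0.00108) and by 6.55-fold over EpiLC (log2 -2.71 for EpiLC against mESC-ser, SE 0.29, adjusted p = 1.91e-07). Without replicate 3 of mESC-2i the first was 2.89 on the log2 scale.

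Type XI collagen is the cartilage counterpart of type V. Col11a1 stood at 7.74, 5.92 and 8.81 CPM in mESC-2i, at 10.1, 8.82 and 9.13 CPM in mESC-ser and at 0.805, 0.108 and 0.377 CPM in EpiLC. The 2 stem cell groups were not called (log2 0.27, SE 0.18, adjusted p = 0.204). EpiLC was far below both, 18-fold against mESC-2i (log2 -4.17, SE 0.40, adjusted p = 3.95e-06) and 21.2-fold against mESC-ser (log2 -4.41, SE 0.32, adjusted p = 1.06e-09). With length and GC offsets these were -3.33 and -3.17 on the log2 scale, and without replicate 1 of EpiLC -4.93 and -5.17.

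Col11a2 was lower in level, with 1.84, 1.92 and 3.20 CPM in mESC-2i, then 1.05, 1.44 and 1.21 CPM in mESC-ser and 1.48, 1.08 and 1.63 CPM in EpiLC. It was called lower in mESC-ser (log2 -1.0, SE 0.30, adjusted p = 0.0121) and in EpiLC (log2 -0.78, SE 0.32, adjusted p = 0.0451) than in mESC-2i. Both calls were lost without replicate 3 of mESC-2i (adjusted p = 0.0566 and 0.204), the first also without replicate 1 of mESC-ser (adjusted p = 0.0509), and the second without any 1 of the 3 EpiLC libraries (adjusted p = 0.064 to 0.173), with length and GC offsets (0.101), RLE factors (0.057), DESeq2 (0.172) and the classic exact test of edgeR (0.0555). EpiLC and mESC-ser overlapped (log2 0.26, adjusted p = 0.431). Col27a1, a long fibrillar chain of cartilage, stood at 2.58, 1.92 and 4.13 CPM in mESC-2i, at 2.24, 1.95 and 3.33 CPM in mESC-ser and at 4.16, 3.69 and 4.52 CPM in EpiLC, which lay above all serum libraries and overlapped mESC-2i. It was 1.69-fold higher in EpiLC than in mESC-ser (log2 0.76, SE 0.23, adjusted p = 0.00581), which scaling by total counts lost (log2 0.42, adjusted p = 0.0995), and not called in EpiLC against mESC-2i (log2 0.48, SE 0.29, adjusted p = 0.147), where leaving out replicate 3 of mESC-2i gave a call (log2 0.89, adjusted p = 0.00422). With length and GC offsets it was called in all 3 comparisons, at -0.65 in mESC-ser against mESC-2i and at 1.06 and 1.68 in EpiLC against mESC-2i and mESC-ser on the log2 scale. Col24a1 held at most 2 counts in any library.

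Beaded filament collagens of type VI surround cells and bind them to other matrix. In mESC-ser against mESC-2i, 3 of the 4 tested genes were called higher and none lower, beside 25.9% and 30.3% of all genes. In EpiLC against mESC-2i 1 of 3 was higher and 1 lower, beside 32% and 37.8%. The lower gene was Col6a1, at the floor in EpiLC, to which only a lower call was open. Against mESC-ser none of 3 was higher in EpiLC and 2 lower, beside 35.5% and 37.8%. With length and GC offsets the 2 counts with EpiLC were 2 higher and 1 lower, and 1 higher and 1 lower. The offsets called 37.5% and 29.7%, and 37.2% and 29.2% of all genes. The 3 genes Col6a4, Col6a5 and Col6a6, which encode alternatives to the Col6a3 chain, lie in tandem on chromosome 9 between 105687809 and 106096783, with 28810 and 27917 bases between neighbours. Col6a4 (ENSMUSG00000032572) stood at 0.368, 0.417 and 0.312 CPM in mESC-2i, where the libraries held 3, 5 and 4 counts, at 3.78, 3.65 and 4.48 CPM in mESC-ser and at 3.49, 4.12 and 2.64 CPM in EpiLC. Both mESC-ser and EpiLC lay above mESC-2i, by 10.3-fold (log2 3.36, SE 0.29, adjusted p = 3.73e-06) and 9.04-fold (log2 3.18, SE 0.34, adjusted p = 8.63e-06), the latter 3.80 on the log2 scale with length and GC offsets. Between themselves the 2 groups overlapped (log2 -0.13, SE 0.21, adjusted p = 0.566), and with length and GC offsets EpiLC was called higher (log2 0.55, adjusted p = 0.0198).

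Its neighbour Col6a5 was highest in serum, with 1.11, 0.750 and 1.40 CPM in mESC-2i, then 8.12, 8.40 and 10.6 CPM in mESC-ser and 1.21, 1.30 and 1.26 CPM in EpiLC. It was 7.93-fold higher in mESC-ser than in mESC-2i (log2 2.99, SE 0.25, adjusted p = 2.95e-06) and 6.76-fold lower in EpiLC than in mESC-ser (log2 -2.76, SE 0.22, adjusted p = 5.37e-09, or -1.83 with length and GC offsets). EpiLC and mESC-2i overlapped (log2 0.19, SE 0.34, adjusted p = 0.625), and EpiLC was called higher with the offsets (log2 0.94, adjusted p = 0.0186). Col6a6 held 0, 0 and 1 counts in mESC-2i, 8, 7 and 14 in mESC-ser, then 1, 5 and 2 in EpiLC and was not tested. The serum level was at least 2.30-fold above that of mESC-2i, whose libraries were at the floor.

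The common chains of type VI were low. Col6a1 stood at 1.23, 1.17 and 0.936 CPM in mESC-2i, at 0.840, 0.679 and 1.09 CPM in mESC-ser and at 0.268, 0.108 and 0.126 CPM in EpiLC, where it was at the floor. The first 2 groups overlapped and were not called (log2 -0.35, SE 0.31, adjusted p = 0.365), and EpiLC was at least 3.01-fold lower than mESC-2i (adjusted p = 0.000479). Col6a2 measured 0.737, 0.750 and 0.468 CPM in mESC-2i, then 1.47, 2.38 and 2.47 CPM in mESC-ser and 1.34, 0.108 and 0.879 CPM in EpiLC, with replicate 2 of EpiLC far below the other 2 libraries of that group. It was 3.14-fold higher in mESC-ser than in mESC-2i (log2 1.65, SE 0.34, adjusted p = 0.00154). It was 2.69-fold lower in EpiLC than in mESC-ser (log2 -1.43, SE 0.44, adjusted p = 0.00701), a call lost without replicate 2 of EpiLC (log2 -0.84, adjusted p = 0.0616) and with length and GC offsets (log2 -0.80, adjusted p = 0.118). Without replicate 1 of EpiLC the value was -2.05. Col6a3 held 1 to 4 counts in the 9 libraries.

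Col7a1, the anchoring fibril that ties basement membrane to the dermis, stood at 4.79, 2.83 and 12.1 CPM in mESC-2i, at 22.6, 22.1 and 27.3 CPM in mESC-ser and at 1.48, 2.39 and 1.26 CPM in EpiLC. The groups did not overlap, but replicate 3 of mESC-2i, with 155 counts against 39 and 34, stood apart from its group. The gene was 3.43-fold higher in mESC-ser than in mESC-2i (log2 1.78, SE 0.38, adjusted p = 0.0018), and 2.66 on the log2 scale without that library. EpiLC was 3.89-fold lower than mESC-2i (log2 -1.96, SE 0.54, adjusted p = 0.00636), or -1.08 without it (adjusted p = 0.00504). Against mESC-ser, EpiLC was 13-fold lower (log2 -3.70, SE 0.20, adjusted p = 2.3e-11), or -3.01 with length and GC offsets.

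FACIT collagens coat fibrils without forming them. In mESC-ser against mESC-2i 3 of 8 tested were called higher and 4 lower, in EpiLC against mESC-2i 2 of 7 higher and 5 lower, and in EpiLC against mESC-ser none of 7 higher and 4 lower. The shares were 37.5% and 50%, 28.6% and 71.4%, and 0% and 57.1%, beside 25.9% and 30.3%, 32% and 37.8%, and 35.5% and 37.8% of all genes. With length and GC offsets the counts were 3 and 5, 2 and 4, and 1 and 3. The offsets called 26.9% and 26.4%, 37.5% and 29.7%, and 37.2% and 29.2% of all genes. Among the lower genes, Col9a1 and Col20a1 against mESC-2i and Col12a1 and Col20a1 against mESC-ser were at the floor in EpiLC. They passed the filter through the other group, so only a lower call was open to them. Col12a1 (ENSMUSG00000032332, chromosome 9, 79598991 to 79718831, minus strand), a coat of type I fibrils in tendon, measured 0.737, 0.50 and 0.702 CPM in mESC-2i, then 5.95, 6.02 and 7.23 CPM in mESC-ser, and EpiLC libraries held 2, 2 and 0 counts. Serum cells were 9.56-fold above mESC-2i (log2 3.26, SE 0.25, adjusted p = 1.76e-06). EpiLC was at the floor and at least 17.4-fold lower than mESC-ser (adjusted p = 2.49e-09), while EpiLC against mESC-2i was not tested.

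Col20a1 (ENSMUSG00000016356, chromosome 2, 180986535 to 181018363, plus strand) was highest in mESC-2i, with 9.09, 9.42 and 22.3 CPM in mESC-2i, then 1.05, 1.44 and 1.66 CPM in mESC-ser and no count in EpiLC. It fell 10.2-fold in mESC-ser (log2 -3.35, SE 0.39, adjusted p = 3.49e-05), and by 2.77 on the log2 scale without replicate 3 of mESC-2i, the library with the high value. EpiLC was at least 36.9-fold lower than mESC-2i (adjusted p = 2.37e-05), or at least 25.1-fold without that library, and at least 3.76-fold lower than mESC-ser (adjusted p = 7.58e-06). Col20a1 shares 79 bases of exon with another gene on its strand.

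Type IX collagen coats cartilage fibrils and is made of the products of Col9a1, Col9a2 and Col9a3, which did not move together. Col9a1 stood at 2.46, 2.17 and 1.64 CPM in mESC-2i, while mESC-ser libraries held 1, 2 and 5 counts and EpiLC libraries 0, 1 and 1. It was 11.1-fold lower in mESC-ser (log2 -3.47, SE 0.42, adjusted p = 4.27e-05), or -4.08 without replicate 3 of mESC-ser, and at least 5.67-fold lower in EpiLC (adjusted p = 2.66e-05) than in mESC-2i. Col9a3 also was highest in mESC-2i, with 6.02, 8.0 and 8.26 CPM there, 2.59, 2.97 and 3.39 CPM in mESC-ser and 2.55, 2.28 and 4.02 CPM in EpiLC. It fell 2.60-fold in mESC-ser (log2 -1.38, SE 0.19, adjusted p = 0.00011) and 2.58-fold in EpiLC (log2 -1.37, SE 0.24, adjusted p = 0.000337), and the last 2 groups overlapped (log2 0.05, adjusted p = 0.85). Reads within 234 bases that Col9a3 shares with Tcfl5 on the opposite strand cannot be assigned.

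Col9a2 went the other way, with 4.30, 3.25 and 4.52 CPM in mESC-2i, then 12.0, 11.5 and 15.0 CPM in mESC-ser and 5.91, 7.81 and 5.53 CPM in EpiLC. The groups did not overlap, and mESC-2i was lowest. It was 3.08-fold higher in mESC-ser (log2 1.62, SE 0.19, adjusted p = 3.11e-05) and 1.59-fold higher in EpiLC (log2 0.67, SE 0.22, adjusted p = 0.0159) than in mESC-2i, the latter not called with total-count scaling (log2 0.33, adjusted p = 0.185) or without replicate 2 of EpiLC (log2 0.50, adjusted p = 0.0863). It was 1.88-fold lower in EpiLC than in mESC-ser (log2 -0.91, SE 0.17, adjusted p = 8.68e-05).

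The other FACIT genes were low, with no library above 4.17 CPM. Col14a1, expressed in tendon and skin, measured 1.35, 2.67 and 2.18 CPM in mESC-2i, then 0.910, 1.02 and 0.861 CPM in mESC-ser and 1.07, 0.651 and 0.879 CPM in EpiLC. All mESC-2i libraries lay above the others, which overlapped. The gene was lower in mESC-ser (log2 -1.25, SE 0.30, adjusted p = 0.00372) and in EpiLC (log2 -1.31, SE 0.35, adjusted p = 0.00542) than in mESC-2i, the second not called with length and GC offsets (log2 -0.69, adjusted p = 0.103). Col16a1, a collagen of skin and cartilage, rose instead, from 0.368, 0.417 and 0.858 CPM under 2i to 1.26, 1.02 and 1.72 CPM in mESC-ser and 2.01, 1.41 and 1.63 CPM in EpiLC, and the last 2 groups overlapped (log2 0.36, SE 0.30, adjusted p = 0.259), where EpiLC was called higher with length and GC offsets (log2 0.68, adjusted p = 0.0361). The first rise (log2 1.18, SE 0.39, adjusted p = 0.0204) was lost with DESeq2 (adjusted p = 0.0599) and without replicate 1 or 2 of mESC-2i (0.0669 and 0.0792) or replicate 3 of mESC-ser (0.0923), while that in EpiLC (log2 1.51, SE 0.38, adjusted p = 0.004) was called without any 1 library.

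Col22a1, a collagen of the muscle and tendon junction, read 4.17, 2.33 and 2.81 CPM in mESC-2i, then 1.61, 1.44 and 2.81 CPM in mESC-ser and 1.21, 0.651 and 0.503 CPM in EpiLC. EpiLC lay below all other libraries, by log2 -1.97 (SE 0.38, adjusted p = 0.000704) against mESC-2i and -1.29 (SE 0.39, adjusted p = 0.006) against mESC-ser. With length and GC offsets these were -1.25, still called, and -0.50, not called (adjusted p = 0.252). The 2 stem cell groups overlapped (log2 -0.65, SE 0.32, adjusted p = 0.0949), and mESC-ser was called lower with the offsets (adjusted p = 0.0408) or without its replicate 3 (log2 -1.03, adjusted p = 0.0259). Col19a1 held at most 2 counts in any library.

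Short-chain collagens build the lattice under endothelia, and 2 of the 3 genes were measurable. Col8a2 stood at 0.491, 0.50 and 0.702 CPM in mESC-2i, at 1.40, 2.55 and 2.18 CPM in mESC-ser and at 0.805, 0.868 and 0.879 CPM in EpiLC. Serum libraries lay above the others, 3.36-fold over mESC-2i (log2 1.75, SE 0.35, adjusted p = 0.00124), and EpiLC was 2.22-fold lower than mESC-ser (log2 -1.15, SE 0.33, adjusted p = 0.00432). Col8a1 measured 1.11, 0.667 and 0.858 CPM in mESC-2i, then 1.26, 1.44 and 1.44 CPM in mESC-ser, and EpiLC libraries held 0, 1 and 0 counts. Serum libraries were highest, but the first 2 groups were not called as different (log2 0.63, SE 0.30, adjusted p = 0.0843), and EpiLC was at least 3.74-fold lower than mESC-ser (adjusted p = 5.93e-06). Col10a1, the collagen of growth plate cartilage, held at most 2 counts.

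Transmembrane collagens stay on the cell surface. Col23a1 stood at 1.96, 1.75 and 1.87 CPM in mESC-2i, at 0.350, 0.424 and 0.459 CPM in mESC-ser and at 0.403, 0.325 and 0.126 CPM in EpiLC. It was 4.58-fold lower in mESC-ser (log2 -2.19, SE 0.30, adjusted p = 9.25e-05) and at least 5.06-fold lower in EpiLC (adjusted p = 0.000115) than in mESC-2i, with no overlap. Col13a1, known at the nerve and muscle junction, read 3.07, 2.42 and 3.59 CPM in mESC-2i, then 3.08, 2.72 and 2.24 CPM in mESC-ser and 1.34, 0.542 and 0.503 CPM in EpiLC. The first 2 groups overlapped (log2 -0.24, SE 0.24, adjusted p = 0.383), and EpiLC was 3.91-fold lower than mESC-2i (log2 -1.97, SE 0.37, adjusted p = 0.000598) and 3.21-fold lower than mESC-ser (log2 -1.68, SE 0.34, adjusted p = 0.000245).

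Col17a1, the collagen of hemidesmosomes in skin, measured 0.982, 1.17 and 2.10 CPM in mESC-2i, then 0.770, 1.78 and 1.38 CPM in mESC-ser and 2.68, 1.74 and 1.88 CPM in EpiLC, with overlap in every comparison. Its call in EpiLC against mESC-ser (log2 0.77, SE 0.32, adjusted p = 0.0336) was lost with DESeq2 (adjusted p = 0.0767), with total-count scaling (0.218), with all 9 libraries in one fit (0.0882) and without replicate 1 of mESC-ser (0.146) or of EpiLC (0.159). EpiLC against mESC-2i was not called (log2 0.48, SE 0.34, adjusted p = 0.214), and it was called without replicate 3 of mESC-2i (log2 0.90, adjusted p = 0.0257) or with length and GC offsets (log2 0.83, adjusted p = 0.0323). Col25a1, a collagen of neurons, held 0 to 6 counts in the 9 libraries.

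Of the last 2 genes, Col26a1 stood at 4.05, 4.17 and 5.69 CPM in mESC-2i, at 0.980, 1.95 and 0.804 CPM in mESC-ser and at 3.49, 2.71 and 3.14 CPM in EpiLC, lowest in serum without overlap. It was 4.05-fold lower in mESC-ser than in mESC-2i (log2 -2.02, SE 0.32, adjusted p = 0.000248) and 2.76-fold higher in EpiLC than in mESC-ser (log2 1.46, SE 0.30, adjusted p = 0.000282). The fall from mESC-2i to EpiLC (log2 -0.61, SE 0.22, adjusted p = 0.0266) was lost with DESeq2 (adjusted p = 0.13), with length and GC offsets (0.244), without replicate 3 of mESC-2i (0.0948), and without replicate 2 or 3 of EpiLC (0.108 and 0.065). Col28a1 held at most 2 counts.

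Chains of 1 collagen type were not kept in a fixed ratio. The type I helix is known to take a pair of Col1a1 chains for each Col1a2 chain, and the common type IV helix a pair of Col4a1 chains for each Col4a2 chain. The ratio of Col1a1 to Col1a2 in RPKM was 5.55, 3.71 and 5.78 in mESC-2i, 10.3, 10.4 and 9.48 in mESC-ser, then 0.526, 1.18 and 0.996 in EpiLC. All 3 groups lay apart, with geometric means of 4.92, 10.1 and 0.851. The ratio of Col4a1 to Col4a2 was 0.986, 1.14 and 0.952 in mESC-2i, 1.43, 1.46 and 1.37 in mESC-ser, then 2.30, 2.9 and 2.76 in EpiLC. Here too the groups lay apart, but EpiLC was highest.

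Col5a1 stood to Col5a2 at a geometric mean of 5.92 (5.39 to 6.89) in mESC-2i, 10.1 (9.06 to 11.8) in mESC-ser and 2.85 (2.22 to 3.87) in EpiLC. Col9a2 stood to Col9a3 at 0.674 (0.506 to 0.889), 5.35 (4.80 to 5.75) and 2.76 (1.71 to 4.27). No 2 groups overlapped in any of these 4 ratios, and each of the 12 2-sided exact permutation tests gave p = 0.1, also after Benjamini-Hochberg adjustment over them, the smallest that 3 against 3 libraries allow. The size of a ratio depends on the length assigned to each gene. With the length of the longest principal transcript, the Col1a1 to Col1a2 ratio was 2.34, 4.79 and 0.405 in the 3 groups and that of Col4a1 to Col4a2 was 1.12, 1.56 and 2.9. For type IX, a ratio of Col9a2 to Col9a1 could not be formed in every EpiLC library, as 1 of them had no Col9a1 count, and likewise Col4a6 had none in EpiLC.

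**Figure D4:**
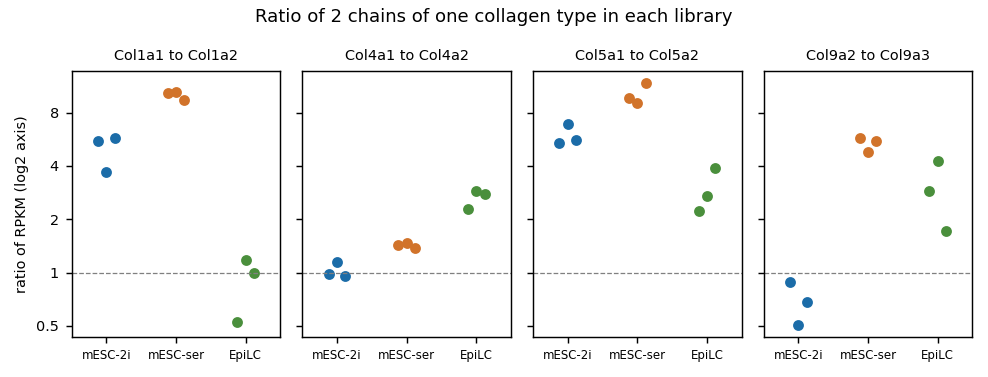
Ratio of RPKM (log2 axis) of 2 chains of one collagen type in each library, with a dashed line at 1. In EpiLC the Col1a1 to Col1a2 ratio is lowest at 0.526 to 1.18, while the Col4a1 to Col4a2 ratio is highest at 2.30 to 2.9.

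The genes that make, export, trim, cross-link, bind and break down collagen were taken from a list of 61 genes in 8 roles. In mESC-ser against mESC-2i, 17 of 49 tested were called higher and 14 lower, a median log2 fold change of -0.09. In EpiLC against mESC-2i, 12 of 45 were called higher and 26 lower (median -0.84), and in EpiLC against mESC-ser 10 of 49 higher and 26 lower (median -0.89). Of all genes, 25.9% were called higher and 30.3% lower in mESC-ser against mESC-2i. The shares were 32% and 37.8% in EpiLC against mESC-2i, and 35.5% and 37.8% in EpiLC against mESC-ser. Roles hold few genes, and several role counts below lie near these shares, such as hydroxylation and crosslinking in mESC-ser. They are given as a description and not as a result about the role. With length and GC offsets the counts were 17 and 13, 13 and 22, and 8 and 29. The offsets called 26.9% and 26.4%, 37.5% and 29.7%, and 37.2% and 29.2% of all genes.

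The partners of collagen in basement membranes fell throughout in EpiLC, with 5 of 5 called lower than in mESC-2i and 5 of 5 lower than in mESC-ser, of which 4 and 5 were called with length and GC offsets. Among all genes 37.8% were called lower in each comparison, or 29.7% and 29.2% with the offsets. Nid1, the linker between the laminin and type IV networks, averaged 235 ± 22.3 CPM (SD, n = 3) in mESC-2i against 141 ± 11.7 in mESC-ser, while EpiLC had 3.69 ± 0.752, 64.9-fold (log2 -6.02, SE 0.15, adjusted p = 6.19e-10) and 36.3-fold (log2 -5.18, SE 0.13, adjusted p = 1.25e-14) lower than in the 2 stem cell groups, or -5.39 and -4.57 on the log2 scale with the offsets. Hspg2, the proteoglycan perlecan, averaged 325 ± 95.2, 1031 ± 142 and 103 ± 6.97 CPM and was 9.42-fold lower in EpiLC than in mESC-ser (log2 -3.24, SE 0.10, adjusted p = 1.03e-13, or -2.28 with the offsets). In secretion, EpiLC was lower than mESC-2i in 4 of 5 genes, where Mia2 and Mia3, which help load collagen into carriers, were no longer called with the offsets. Against mESC-ser it was lower in 4 of 5, where with the offsets Mia2 turned from -0.89 to 0.33 on the log2 scale, not called, and Creb3l1, a factor that drives secretory genes, went from -0.12 to -0.60 and was called lower.

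In propeptide removal, 3 of 5 tested genes rose from mESC-2i to mESC-ser and none of the tested genes rose in EpiLC. Adamts14, a protease that trims fibrillar procollagen, averaged 2.41 ± 1.35 CPM in mESC-2i against 21 ± 2.17 in mESC-ser, while EpiLC had 1.74 ± 0.106, 8.06-fold higher in serum than in 2i (log2 3.01, SE 0.27, adjusted p = 5.56e-06) and 11.3-fold lower in EpiLC than in serum (log2 -3.50, SE 0.17, adjusted p = 1.03e-11). Without replicate 3 of mESC-2i the first was 3.63 on the log2 scale. Pcolce, an enhancer of propeptide removal, averaged 189 ± 6.5, 98.1 ± 1.64 and 27 ± 2.80 CPM, 7.07-fold lower in EpiLC than in mESC-2i (log2 -2.82, SE 0.10, adjusted p = 5.82e-09). Among receptors, 3 of 6 rose and 2 fell in mESC-ser and 2 of 5 rose and 1 fell in EpiLC, against mESC-2i, while 2 of 6 rose and 3 fell in EpiLC against mESC-ser. Ddr2, a kinase that binds fibrillar collagen, averaged 14.9 ± 5.43 CPM in mESC-2i and 3.84 ± 0.256 in mESC-ser (log2 -2.03, SE 0.25, adjusted p = 4.33e-05) and was at the floor in EpiLC, at least 40.6-fold lower than in mESC-2i (adjusted p = 1.31e-06), or at least 32.1-fold without replicate 3 of mESC-2i. Mrc2, which takes up collagen fragments, averaged 9.76 ± 0.723, 9.82 ± 2.84 and 25.6 ± 0.393 CPM and was higher in EpiLC than in mESC-2i (log2 1.37, SE 0.12, adjusted p = 1.99e-06) and mESC-ser (log2 1.44, SE 0.15, adjusted p = 1.72e-07).

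Enzymes and chaperones of the endoplasmic reticulum moved in both directions. Of 12 tested genes of prolyl and lysyl hydroxylation, 3 were higher and 5 lower in mESC-ser than in mESC-2i, 4 higher and 5 lower in EpiLC than in mESC-2i, and 4 higher and 3 lower in EpiLC than in mESC-ser. With the offsets the last became 2 higher and 4 lower. Among the changes, P4hb and P3h2 were no longer called and Crtap and P3h4 were called lower. Ppib, a proline isomerase of collagen folding that overlaps Snx22 on the opposite strand, averaged 242 ± 43.9, 107 ± 15.5 and 628 ± 30.3 CPM, lower in mESC-ser than in mESC-2i (log2 -1.23, SE 0.15, adjusted p = 4.92e-05) and 6.22-fold higher in EpiLC than in mESC-ser (log2 2.64, SE 0.10, adjusted p = 7.55e-13). Of 6 tested genes of glycosylation and folding, 1 rose and 3 fell in mESC-ser, and 2 rose and 4 fell in EpiLC, against mESC-2i. In EpiLC against mESC-ser 1 rose and 3 fell, or 5 with the offsets. Fkbp10, a chaperone of type I collagen, averaged 6.46 ± 1.62, 46.0 ± 3.70 and 34.8 ± 1.18 CPM, 6.89-fold higher in mESC-ser (log2 2.79, SE 0.17, adjusted p = 4.62e-07) and 5.34-fold higher in EpiLC (log2 2.42, SE 0.17, adjusted p = 4.42e-07) than in mESC-2i. Colgalt1, which adds galactose to collagen, averaged 195 ± 3.07, 82.8 ± 1.77 and 53.4 ± 1.11 CPM and fell in mESC-ser (log2 -1.29, SE 0.09, adjusted p = 9.82e-07). Exons of Fkbp10, Colgalt1, Nid1, Ddr2 and Pcolce also overlap genes on the opposite strand.

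For crosslinking, 2 of 6 tested genes rose and 1 fell in mESC-ser, 2 of 5 rose and 2 fell in EpiLC, against mESC-2i, and 2 of 6 rose and 3 fell in EpiLC against mESC-ser. Pxdn, the peroxidase that cross-links type IV collagen, averaged 11.6 ± 1.72, 46.4 ± 1.24 and 31.4 ± 1.77 CPM, 3.83-fold higher in mESC-ser (log2 1.94, SE 0.13, adjusted p = 7.2e-07) and 2.67-fold higher in EpiLC (log2 1.41, SE 0.13, adjusted p = 3.65e-06, or 2.15 with the offsets) than in mESC-2i. Of the degradation genes, 1 of 4 rose and 1 fell in mESC-ser against mESC-2i and 1 rose and 2 fell in EpiLC in each comparison, where the offsets gave 2 and 0 for the first and, for EpiLC against mESC-ser, 1 and 3. Mmp2, a gelatinase, averaged 8.05 ± 0.495, 10.4 ± 1.24 and 19.2 ± 0.841 CPM and was 1.94-fold higher in EpiLC than in mESC-ser (log2 0.95, SE 0.12, adjusted p = 1.61e-06).

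**Figure D5:**
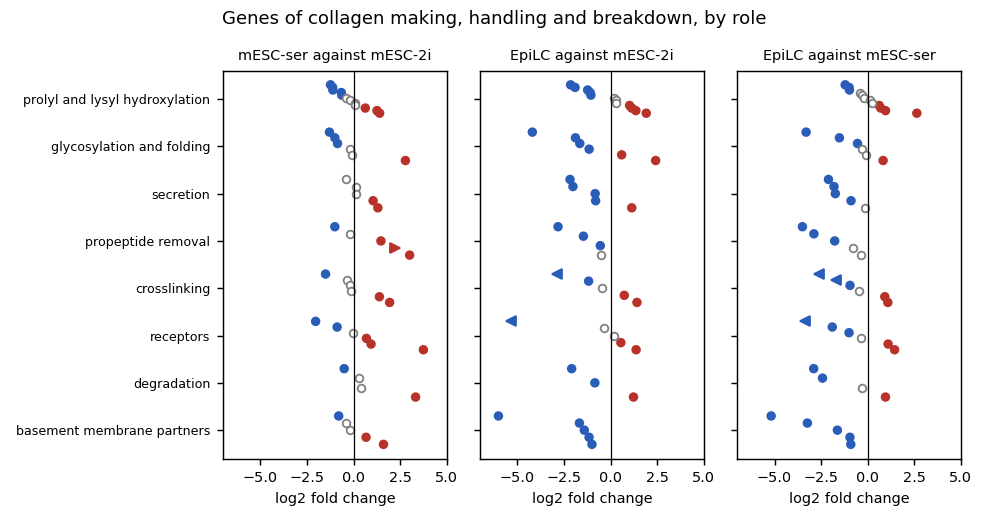
Log2 fold change (x axis) of the tested genes of 61 that act on collagen, by role (y axis), in the 3 comparisons. Red is called higher, blue called lower and open grey not called, and triangles are bounds against a group at the count floor. All 5 basement membrane partners are blue in both comparisons with EpiLC.

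Collagen genes are also made by other cells that a culture could hold, so markers of these were summed in each library. The 9 markers of primitive and parietal endoderm, cells known for type IV collagen, summed to 271 to 356 CPM in mESC-2i, then 287 to 345 CPM in mESC-ser and 137 to 145 CPM in EpiLC. In mESC-ser against mESC-2i 5 of them were called higher and 3 lower, and in EpiLC 1 was higher and 4 lower than in mESC-2i and 1 higher and 6 lower than in mESC-ser. Most of this sum came from the laminin genes Lama1, at a mean of 215, 120 and 3.27 CPM in the 3 groups, and Lamb1, at 71.3, 154 and 128 CPM. The regulators Gata4, Gata6, Sox17 and Sox7 averaged at most 4.61 CPM in any group, and none of the 9 was at 0 throughout. Higher in mESC-ser than in mESC-2i were Gata6 (log2 2.26), Sox7 (1.42), Lamb1 (1.06), Pdgfra (0.67) and Dab2 (0.62). Foxa2 (log2 -1.28), Lama1 (-0.91) and Gata4 (-0.50) were lower. In EpiLC against mESC-ser, Gata4, Gata6, Sox7, Pdgfra, Dab2 and Lama1 were lower and Foxa2 was higher. The 10 markers of fibroblasts and mesenchyme summed to 19.2 to 21.1 CPM in mESC-2i, then 60.8 to 63.6 CPM in mESC-ser and 49.0 to 51.5 CPM in EpiLC, and Fap was at 0 in all libraries. In mESC-ser Acta2 alone averaged 47.4 ± 2.17 CPM, and in EpiLC Thy1 averaged 29.5 ± 2.05 CPM. Of these markers 1 was called higher and 2 lower in mESC-ser than in mESC-2i. In EpiLC 3 were higher and 2 lower than in mESC-2i, and 2 higher and 2 lower than in mESC-ser. Prrx1 and Pdgfrb were lower than in mESC-2i in both mESC-ser (log2 -2.29 and -0.67) and EpiLC (log2 -4.97 and -2.60). Dcn was higher in EpiLC than in mESC-2i (log2 4.08). Trophoblast markers, 7 genes, summed to 126 to 147, 238 to 260 and 79.5 to 82.3 CPM. In mESC-ser against mESC-2i 3 of them were called higher and 2 lower. Krt8 went from a mean of 34.3 to 106 CPM and Krt18 from 11.1 to 95.9 CPM, and Gata3 rose too. Cdx2 fell from 15.5 to 2.44 CPM and Tfap2c from 65.5 to 34.9 CPM. In EpiLC 1 was higher and 4 lower than in mESC-2i, and 1 higher and 5 lower than in mESC-ser. The part of such cells in the collagen levels was not tested.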

How the data were processed

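RNA was poly-A selected, prepared with an unstranded kit and sequenced as 50-base single-end reads. The authors trimmed reads with Trim Galore 0.6.6, aligned them to mm10 with HISAT2 2.2.1 and counted them with featureCounts (Subread 2.0.1). The deposited values are raw counts per Ensembl gene. The annotation release, strand setting and treatment of multiply aligned reads are not given in the sources used here. Symbols, positions and lengths came from GENCODE M21 (GRCm38), which matched 36429 of 38293 identifiers (95.1%). Members, classes and lists were chosen with earlier results of these data known.

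For each comparison the 6 libraries concerned were fitted with edgeR 4.0.16 (R 4.3.3, limma 3.58.1), using filterByExpr, TMM and the quasi-likelihood F-test, with calls at adjusted p below 0.05 and log2 fold changes beyond 0.5 either way. For lactate treatment the study used edgeR with this fold limit and a nominal p under 0.01. In correlating promoter changes of the histone mark H3K18la with expression changes between mESC-ser and mESC-2i, it kept log2 changes over 0.5 in both. A false discovery rate under 0.05 was named there for H3K18la. The general significance level of the study was an adjusted or plain p under 0.05. SE was taken from the F statistic. Against a group at the floor, a fold is the mean CPM of the other group over that of 3 counts per library. Floors cover counting error only. The length and GC offsets used natural splines with 5 degrees of freedom in each library. No label ties replicates to separate cultures, so p-values measure the spread between libraries, which may be technical. Named are all members with a group mean of at least 1 CPM, and per comparison the 3 largest called rises and falls of pathway genes with at least 10 CPM.

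Same-numbered libraries of mESC-ser and mESC-2i deviated together, at correlations of 0.127 to 0.340 across genes. The numbers may therefore pair them, a reading from the data since no label explains the numbers. Pairs of unlike number ranged from -0.276 to 0.144, so the 2 ranges overlapped. The main fits left the libraries unpaired, and a replicate block was fitted as an alternative. With EpiLC the same-numbered correlations were positive but weaker, 0.0221 to 0.109 against mESC-2i and 0.017 to 0.0339 against mESC-ser, and were not taken as pairing. Alternatives included scaling by RLE, upper quartile or total counts, other filters and thresholds, DESeq2 1.42.0, the classic exact test, one fit of all 9 libraries, a replicate block, the offsets, and leaving out each library. The steps were tested on simulated data, where a dependence on length that was put in gave many false calls without the offsets and fewer with them. Only mESC-ser against mESC-2i was simulated, with a trend of the kind that the offsets are built to remove. The simulation therefore cannot show whether the offsets are right for the comparisons with EpiLC. Ratios by principal transcript, unfiltered fits of untested genes and pathway fits without single libraries were added after the data were seen.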

Additional observations from a re-analysis of the deposited data

How the results depend on the processing

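Of 1814 values of single collagen genes under other settings, 1730 kept their call or lack of one, among them 34 not called whose sign turned, 58 lost the call, 22 gained one and 4 reversed. The reversals were in EpiLC against mESC-ser with length and GC offsets, where Col5a2 went to 0.71 and Col6a4 to 0.55 on the log2 scale, and to 0.69 and 0.53 when a replicate block was added. The offsets, with or without the block, raised the genes called higher in EpiLC from 4 to 7 against mESC-2i and from 3 to 7 against mESC-ser. A minimum of 10 counts in every library, which tests fewer genes, left 7 of 14 called higher in mESC-ser, 2 of 4 higher and 9 of 21 lower in EpiLC against mESC-2i (10 lower with Col5a2, called there only under that minimum or total counts), and 6 of 19 lower in EpiLC against mESC-ser. Total-count scaling, or an absolute log2 fold change over 1, left 1 of 3 genes higher in EpiLC against mESC-ser. Leaving out 1 library gave 12 to 14 higher and 10 to 11 lower in mESC-ser against mESC-2i, 3 to 6 and 19 to 21 in EpiLC against mESC-2i, and 2 to 3 and 18 to 19 in EpiLC against mESC-ser. Without replicate 3 of mESC-2i the counts were 14 and 10, and 6 and 19. The replicate block alone gave 14 and 11, 4 and 21, and 2 and 19, and it changed no other call than that of Col17a1 in EpiLC against mESC-ser (adjusted p = 0.053). Where a cause is not plain from a setting, the cause was not tested. Depth limits the 9 genes with fewer than 10 counts in every library.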
